A study of Mus musculus with 16 samples.

Results

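Kidneys of aged mice that received the herbal formula Palmijihwang-tang (PM) were set against kidneys of aged mice that received the related formula Yukmijihwang-tang (YM), gene by gene. The comparison takes the 3 libraries labelled Old+PM and the 3 labelled Old+YM, 6 of the study's 16 libraries, and covers every gene with enough counts to be tested, 14665 of the 40879 gene symbols in the files. All mice were wild-type C57BL/6 males. Each formula was given by mouth at 100 mg/kg/day, 5 days per week, between 19 and 24 months of age, so dose and schedule were matched. The labels give 5 months of acclimatization for both treated groups and for the 5 untreated Old libraries, which serve below as a reference. The remaining 5 libraries, labelled Young, are from mice aged 3 months and enter the fit of all 16 libraries. One passage of the labels names YM where the PM dose is described, and the group name was followed. For the untreated Old group the labels state no age at collection. No label ties a library to a mouse of its own, so p-values measure the spread between libraries, part of which may be technical.

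Both formulas are decoctions of East Asian herbal medicine built on Rehmannia root. YM joins it with Cornus fruit, Dioscorea rhizome, Poria, Moutan bark and Alisma. PM holds these herbs and adds cinnamon bark and processed aconite root. The comparison is between whole mixtures given at the same dose, and it concerns no single herb or compound. Both are traditionally given for complaints of ageing and of the kidney, an organ whose proximal tubule reabsorbs most of the filtered solutes and burns much fatty acid in its mitochondria to do so.

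RNA was measured by QuantSeq, which reads the 3' ends of polyadenylated transcripts, and totals were 8223008 to 8995881 counts in Old+YM and 9415602 to 10261971 in Old+PM. The tissue was kidney by its markers: Umod, the thick ascending limb glycoprotein, ran from 1266 to 1729 CPM (counts scaled to library size) in the 6 libraries, and Kap, an androgen-dependent proximal tubule protein, from 13000 to 21640 CPM. Genes of the mitochondrial genome took 19.4%, 24.5% and 17.8% of the counts in Old+YM and 18.03%, 14.98% and 16.4% in Old+PM (exact permutation p = 0.2, two-sided; the smallest p that 3 against 3 libraries allow is 0.1). In a principal component analysis of all 16 libraries over 2000 genes Old+PM 3 stood apart from the other treated libraries. On component 1 it scored -14.93, against 16.51 and 18.82 for Old+PM 1 and 2 and 21.44 to 23 for Old+YM. Untreated Old ran from -6.37 in Old 4 to 44.42, and Young from -39.14 to -15.25. On component 2 Old+PM 3 (32.42) was close to Old 4 (31.53). Each gene's log2 CPM was also taken as its deviation from that gene's mean over all 16 libraries. In Old+YM this deviation ran against the GC share of the last 300 bases of the transcript (Spearman rho across genes, -0.227 to -0.0956). In Old+PM it ran with that share or nearly flat (0.0195 to 0.234). Untreated Old libraries covered -0.245 to 0.152 on that measure. The exact permutation p was 0.1 for this correlation and 0.1 for total counts, the smallest possible. Adjusted over 7 library measures by Benjamini-Hochberg, both were 0.35. Results below are given with these values where they touch them. In whole tissue, fewer cells of a type and less RNA per cell cannot be told apart.

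No gene passed the test between the formulas. In edgeR's quasi-likelihood test and Benjamini-Hochberg adjustment, 0 of 14665 genes (0%) had an adjusted p under 0.05, and the smallest adjusted p was 0.0594, shared by Spred2 and Usp19. At an unadjusted p under 0.05 stood 1878 genes (12.8%), of which 888 (6.06%) were higher and 990 (6.75%) lower in Old+PM. That count was 906 without Old+PM 3 and 1177 without Old+YM 2, and 956 with the mitochondrial share as a covariate. DESeq2's Wald test on the same counts called 58 of 13804 genes (0.420%), 13 higher and 45 lower, limma-voom called 2 lower (ND3 and Usp19), and edgeR on the 6 treated libraries alone called 13 of 13704 (0.0949%), all lower. The DESeq2 and 6-library calls shared 7 genes.

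A missed threshold does not show that the formulas act alike. The 95% interval of the log2 difference lay within 1 log2 unit of 0 for 8966 genes (61.1%), and for 5699 genes (38.9%) it reached beyond. The median size of the difference was 0.25 log2 units, and the median interval extended 0.52 to each side. Among well measured kidney genes, Umod differed by 0.14 log2 (95% interval -0.17 to 0.45), the thiazide-sensitive cotransporter Slc12a3 by 0.11 (-0.19 to 0.40), the water channel Aqp2 by 0.16 (-0.41 to 0.72), angiotensinogen Agt by 0.10 (-0.33 to 0.53) and the cell-cycle inhibitor Cdkn1a by -0.13 (-0.62 to 0.36). These 5 genes had intervals within 1 log2 unit of 0.

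**Figure D1:**
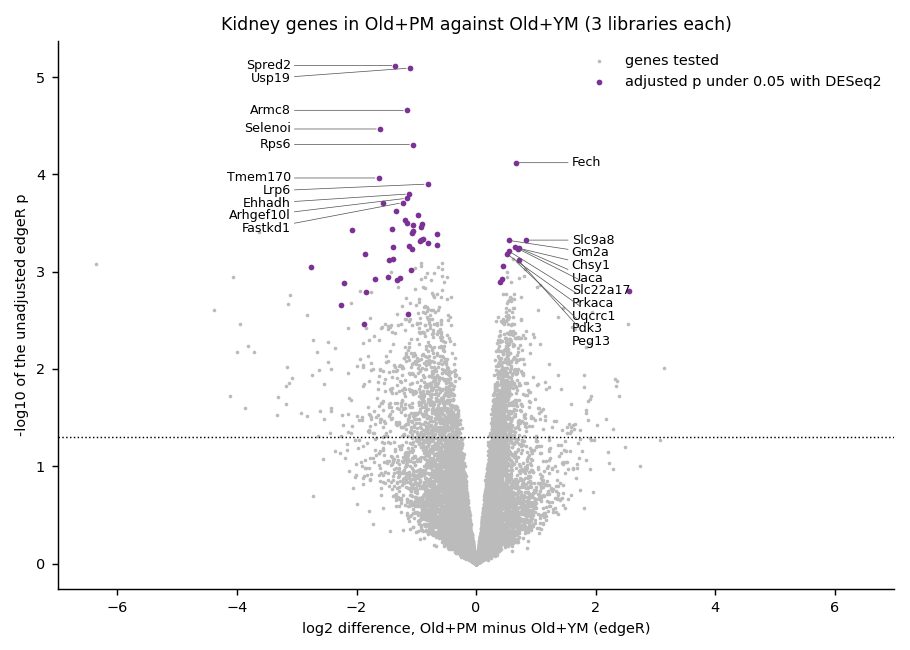
Each point is 1 of the 14665 genes tested, placed by its log2 difference between Old+PM and Old+YM (x) and by -log10 of its unadjusted edgeR p (y); the dotted line marks 0.05. Purple points are the 58 genes called by DESeq2, of which 45 lie on the lower side, and the 20 labelled genes are the 10 with the smallest p in each direction.

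The genes with the smallest p on the lower side include regulators of signalling and of protein turnover. Spred2, a Sprouty-related inhibitor of RAS and ERK signalling (chr11:19924375-20024026, plus strand, GRCm38), was at 19.8, 19.5 and 25.2 CPM in Old+YM and at 8.39, 8.05 and 8.80 CPM in Old+PM. Every Old+PM library lay below every Old+YM library, and also below the untreated Old range of 9.57 to 15.96 CPM. The log2 difference was -1.35 (SE 0.226, edgeR adjusted p = 0.0594), and DESeq2 gave an adjusted p of 0.000288.

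Usp19, a deubiquitinase with a form anchored in the endoplasmic reticulum (chr9:108490602-108502337, plus strand, GRCm38), was at 68.1, 70.1 and 61.3 CPM in Old+YM and at 34.5, 30.4 and 27.4 CPM in Old+PM. The groups did not overlap, and the Old+PM values fell inside the untreated Old range of 25.7 to 34.6 CPM, which the Old+YM values exceeded. The log2 difference was -1.11 (SE 0.186, adjusted p = 0.0594). Usp19 was the one gene called by DESeq2, limma-voom and the 6-library edgeR fit alike. Armc8, a subunit of the CTLH ubiquitin ligase complex, was at 29.4, 41.6 and 30.3 CPM against 17.6, 15.7 and 12.0 CPM, with a log2 difference of -1.16 (SE 0.21, adjusted p = 0.108). Its Old+PM values lay below the Old range of 19.7 to 30.2 CPM.

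Selenoi, the selenoprotein that makes phosphatidylethanolamine (chr5:30232581-30272427, plus strand, GRCm38), was at 11.2, 13.7 and 10.2 CPM in Old+YM and 3.54, 4.60 and 3.31 CPM in Old+PM. All 3 Old+PM libraries were below the Old range of 5.26 to 6.57 CPM and all 3 Old+YM libraries above it, and the log2 difference was -1.61 (adjusted p = 0.125). Lrp6, a co-receptor for Wnt ligands, was at 66.5, 86.4 and 77.1 CPM against 45.6, 39.5 and 46.1 CPM, a log2 difference of -0.81. Its groups did not overlap either. Arhgef10l, a guanine nucleotide exchange factor, was at 25.4, 37.0 and 29.5 CPM against 14.3, 9.91 and 17.1 CPM, and Fastkd1, of a family of mitochondrial RNA-binding proteins, at 13.2, 11.9 and 11.5 CPM against 6.15, 4.51 and 4.97 CPM. The small membrane protein gene Tmem170 was at 7.35, 6.57 and 8.90 CPM against 2.98, 2.48 and 1.86 CPM. The log2 differences of these last 3 genes were -1.16, -1.22 and -1.63 (adjusted p = 0.226 each), and none had overlapping groups. The remaining 2 of the 10, Rps6 and Ehhadh, are given with their pathways below.

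On the higher side the differences were smaller. Fech, ferrochelatase, which puts iron into haem, was at 79.3, 77.7 and 89.2 CPM in Old+YM and 120.1, 125.7 and 143.6 CPM in Old+PM, a 1.58-fold difference in means (log2 0.66, SE 0.134, adjusted p = 0.186). Each Old+PM library was above the Old range of 89.6 to 113.8 CPM and each Old+YM library below it. Gm2a, the lysosomal activator of ganglioside breakdown (chr11:55098115-55113029, plus strand, GRCm38), was at 316, 274 and 325 CPM against 406, 447 and 481 CPM (log2 0.54, adjusted p = 0.226). Its Old+YM values lay below the Old range of 353 to 459 CPM.

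Membrane transporters were also on the higher side. Slc9a8, the sodium and proton exchanger NHE8, was at 28.9, 46.6 and 29.7 CPM against 62.8, 54.3 and 70.4 CPM (log2 0.84), and Slc22a17, a receptor for lipocalin 2, at 52.7, 47.4 and 41.7 CPM against 65.3, 79.4 and 87.0 CPM (log2 0.71). In both genes all Old+PM libraries were above all Old+YM libraries and above the highest Old library, 50.5 CPM for Slc9a8 and 60.9 CPM for Slc22a17. Chsy1, a chondroitin synthase, differed by 0.65 log2, but exons of Gm26827 overlap it on the other strand, and whether the counting used strand is not stated.

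Among the others were signalling and energy genes. Prkaca, a catalytic subunit of protein kinase A, was at 84.3, 78.2 and 72.9 CPM against 103.8, 115.7 and 126.6 CPM (log2 0.56). Pdk3, a kinase that holds back pyruvate dehydrogenase, differed by 0.62 log2, Uqcrc1, a core subunit of respiratory complex III, by 0.52, Uaca by 0.73, and Peg13, an imprinted noncoding RNA, by 0.71. The adjusted p of these genes ran from 0.226 for Uaca to 0.243 for Pdk3 and Peg13, and their groups did not overlap. All of the 20 genes had groups that did not overlap, as had 1744 genes (11.9%) higher and 1748 (11.9%) lower among all tested. DESeq2 called 19 of the 20. Because the 20 were picked by their edgeR p on the same counts, neither the missing overlap nor the DESeq2 calls are a separate check.

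**Figure D2:**
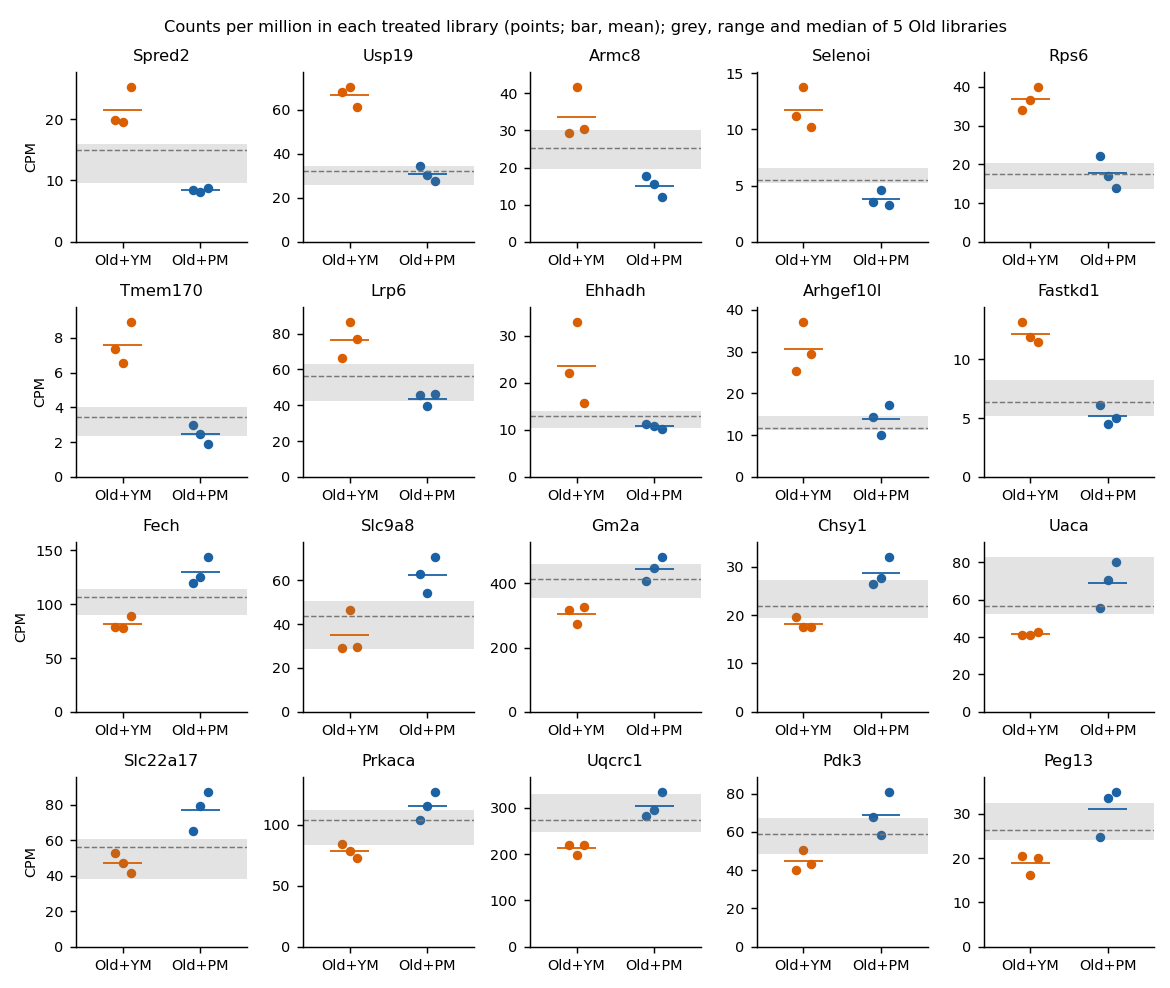
CPM (y, from 0) of the 10 genes with the smallest p on the lower side (upper rows) and on the higher side (lower rows) in each treated library (points) with the group mean (bar); the grey band and dashed line are the range and median of the 5 untreated Old libraries. In each panel the 3 Old+PM points lie wholly on 1 side of the 3 Old+YM points.

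Each formula's own difference from untreated Old was set beside these values. Both of those differences use the same 5 Old libraries, and the 20 genes were picked for the gap between the formulas, so the positions are a description. Old+YM was farther from Old than Old+PM in 16 of the 20 genes. Usp19 stood at 1.08 log2 above Old in Old+YM (SE 0.166, adjusted p = 0.0245) and at -0.03 in Old+PM, Rps6 at 1.08 (SE 0.183, adjusted p = 0.0339) and 0.03, and Arhgef10l at 1.31 (SE 0.224, adjusted p = 0.0339) and 0.16. These 3 genes were the only ones of 14665 (0.0205%) to pass in Old+YM against Old, all rising, and 0 (0%) passed in Old+PM against Old. Armc8 (0.46 in Old+YM, -0.70 in Old+PM), Slc22a17 (-0.18 and 0.53), Slc9a8 (-0.29 and 0.55) and Chsy1 (-0.32 and 0.34) were the 4 genes with Old+PM farther from Old.

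**Figure D3:**
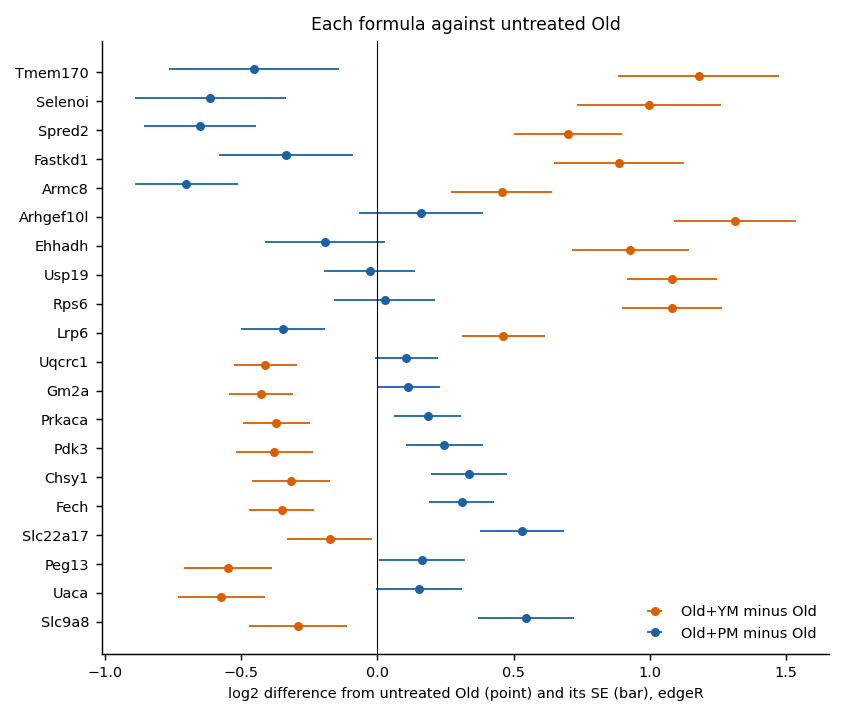
Points are edgeR log2 differences from untreated Old for Old+YM (orange) and Old+PM (blue), with bars for the SE, in the 20 genes named above, ordered by their difference between the formulas. Orange points reach 1.31 in Arhgef10l, while blue points stay between -0.70 and 0.55.

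Gene lists for kidney cell types and pathways were counted next, each against the shares for all genes tested. No member of any of the 58 lists passed the adjusted threshold, so the counts below are of members at an unadjusted p under 0.05, higher and lower, beside 6.06% and 6.75% of all genes. Over all genes tested the median log2 difference was 0.01, and the groups did not overlap for 11.9% in each direction. The shares of all genes change with the setting, and a list's count under a setting is to be read against them. Without Old+PM 3 they were 2.52% higher and 3.66% lower, without Old+YM 2 3.84% and 4.19%, without Old+YM 1 4.15% and 5.62%, and without Old+YM 3 4.86% and 5.57%. Leaving out Old+PM 2 gave 5.18% and 5.03%, and leaving out Old+PM 1 gave 7.73% and 9.57%. With the mitochondrial share as a covariate they were 2.87% and 3.65%, and after removal of the GC trend 5.33% and 6.18%.

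**Figure D4:**
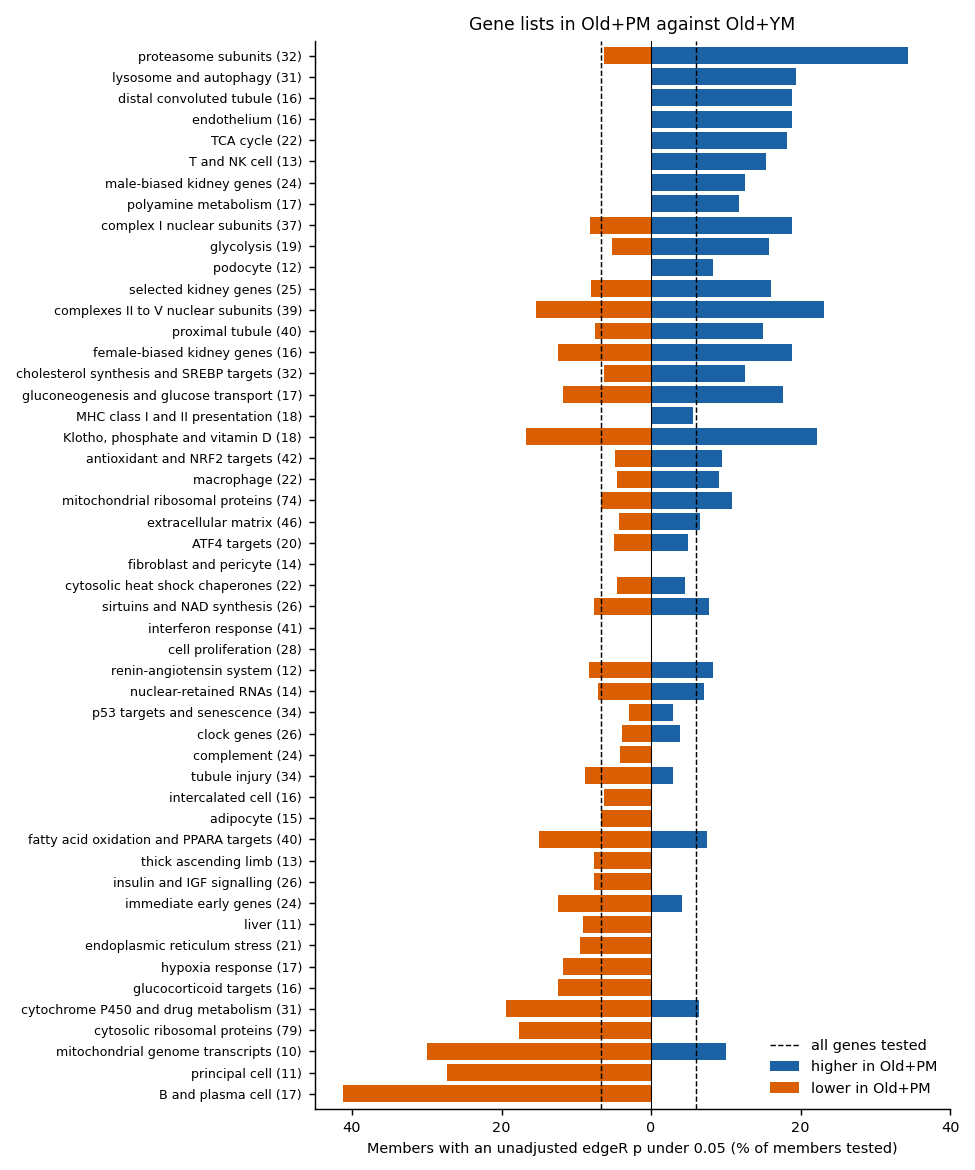
Bars give the percentage of a list's tested members (number in brackets) with an unadjusted edgeR p under 0.05, higher in Old+PM to the right and lower to the left, for lists with at least 10 tested members; dashed lines mark all genes tested, 6.06% and 6.75%. The proteasome list reaches 34.4% on the higher side and the B and plasma cell list 41.2% on the lower.

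Protein-degrading machinery leaned to higher values in Old+PM. Of 32 proteasome subunits 11 were higher and 2 lower, with a median log2 difference of 0.09. Psmb3, a subunit of the catalytic core, was at 138.6, 122.1 and 124.7 CPM in Old+YM and 176.3, 213.7 and 210.7 CPM in Old+PM (log2 0.64, SE 0.192, adjusted p = 0.258). All Old+PM libraries were above all Old+YM libraries and inside the Old range of 131.6 to 214.9 CPM. The others on the higher side were Adrm1, Psmb6, Psmb4, Psma2, Psmd13, Psmc1, Psmc4, Psmd4, Psmc5 and Psmd7, at 0.27 to 0.58 log2, and Psmd11 and Psma1 were on the lower side at -0.36 and -0.51. Summed over the list, levels were 3829 to 4056 CPM in Old+YM and 4271 to 4810 CPM in Old+PM, within an Old range of 3885 to 5009 CPM. The count of 11 was 2 without Old+PM 3, 4 without Old+YM 1, 5 without Old+YM 3, 4 with the mitochondrial share as a covariate and 6 after the GC trend was taken out. The share of all genes on the higher side also went down, to 2.52% without Old+PM 3 and 2.87% with the covariate.

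Lysosome and autophagy genes showed the same lean, with 6 of 31 higher and 0 lower, 23 of 31 above 0, and a median of 0.22. Their groups did not overlap for 13 members on the higher side and 2 on the lower, beside 11.9% of all genes in each direction. Glb1, lysosomal beta-galactosidase (chr9:114401076-114474898, plus strand, GRCm38), was at 74.8, 75.7 and 71.4 CPM against 95.1, 92.0 and 104.9 CPM (log2 0.40, SE 0.124, adjusted p = 0.26). Its Old+PM values were above all Old+YM values, with Old at 69.8 to 98.2 CPM, and its exons overlap those of Tmppe on the same strand. Map1lc3a, an autophagosome membrane protein, differed by 0.41 log2, Atg9a, an autophagy membrane protein, by 0.38, the cathepsin Ctsz by 0.29, the cholesterol carrier Npc2 by 0.28 and the membrane glycoprotein Lamp1 by 0.24. List sums were 8041 to 8513 CPM in Old+YM and 8934 to 9669 CPM in Old+PM. The 6 became 2 without Old+PM 3, 2 without Old+YM 2, 3 without Old+YM 1, 3 with the mitochondrial share as a covariate and 2 with the GC trend taken out, where the median was 0.13. Of all genes 2.52%, 3.84%, 4.15%, 2.87% and 5.33% were higher in those fits, in the same order.

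Lysosomal genes are known to share promoter elements built around the letters CACGTG, which the transcription factor TFEB binds. Promoter windows of RefSeq genes (GRCm38.p6, 250 bases before to 50 after the start) were searched for CACGTG, which reads the same on both strands. It stood in 9 of the 25 list members that matched (36%), namely Lamp1, Ctsa, Ctsd, Ctsl, Glb1, Gaa, Mcoln1, Atg5 and Atg7, and in 8.09% of all 27025 symbols. Of the members counted above as higher in Old+PM, Glb1 and Lamp1 are among these, and Map1lc3a, Atg9a, Ctsz and Npc2 are not. Whether the motif goes with the difference between the formulas was not tested. Glb1, the member with the smallest p, holds 1 match (chr9:114400828-114401127, plus strand), and Lamp1 holds 4 (chr8:13158911-13159210, plus strand). The motif is in capitals, and a match says only that the letters are there.
Glb1: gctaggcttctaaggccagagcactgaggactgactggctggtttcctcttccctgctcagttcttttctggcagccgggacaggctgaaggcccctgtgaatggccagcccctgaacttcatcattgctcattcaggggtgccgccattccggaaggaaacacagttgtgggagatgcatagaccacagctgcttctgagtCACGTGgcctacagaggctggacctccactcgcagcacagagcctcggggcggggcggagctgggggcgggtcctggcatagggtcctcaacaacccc
Lamp1: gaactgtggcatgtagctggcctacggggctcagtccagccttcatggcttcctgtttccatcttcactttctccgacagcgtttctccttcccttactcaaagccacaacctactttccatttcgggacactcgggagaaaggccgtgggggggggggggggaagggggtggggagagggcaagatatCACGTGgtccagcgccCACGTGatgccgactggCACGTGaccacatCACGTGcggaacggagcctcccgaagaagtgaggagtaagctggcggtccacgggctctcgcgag

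Cytosolic ribosomal protein genes leaned the other way, with 0 of 79 higher and 14 lower, and a median of -0.12. Rps6, a protein of the small subunit that is phosphorylated downstream of mTOR (chr4:86854660-86857412, minus strand, GRCm38), was at 34.1, 36.6 and 39.9 CPM in Old+YM and 22.2, 17.1 and 13.9 CPM in Old+PM. Old+PM 2 and 3 lay in the Old range of 13.7 to 20.3 CPM, Old+PM 1 just above it and all Old+YM libraries well above it, with a log2 difference of -1.06 (SE 0.205, adjusted p = 0.145). Rpl35 followed at -0.92, Rpl17 at -0.86, Rps24 at -0.73 and Rpl30 at -0.71. Summed over the list the groups overlapped, at 26400 to 29200 CPM and 26240 to 27570 CPM. Genes of this family have many near-identical copies in the genome, and how reads with several alignments were counted is not stated, so the value of a single member is uncertain. The 14 became 5 without Old+PM 3, 8 without Old+PM 2, 9 without Old+YM 2 and 9 without Old+YM 3, 6 with the mitochondrial share as a covariate and 17 with the GC trend taken out. Of all genes 3.66% were lower without Old+PM 3 and 3.65% with the covariate. On the higher side 4 members stood without Old+YM 3 and 4 without Old+PM 1.

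Respiratory chain genes were split by subunit. Among 37 nuclear genes of complex I 7 were higher and 3 lower, and among 39 of complexes II to V 9 were higher and 6 lower, with medians of 0.14 and -0.02. Ndufv1, a complex I subunit that takes electrons from NADH, was at 297 to 305 CPM in Old+YM and 359 to 422 CPM in Old+PM (log2 0.35, adjusted p = 0.292), and Uqcrc1 at 219, 198 and 221 CPM against 283, 295 and 334 CPM. Both had Old+PM wholly above Old+YM. Several small subunits were far lower instead. Sdhd, a membrane anchor of complex II, was at 72.4, 118.4 and 55.8 CPM against 12.8, 3.10 and 2.79 CPM, with Old at 2.53 to 10.95 CPM. Atp5j, a part of the ATP synthase stalk, was at 314, 357 and 315 CPM against 199, 109.6 and 55.9 CPM. Ndufa4 was at 396, 374 and 389 CPM against 267, 196 and 102 CPM. It was counted in the complex I list by its name, and its place in that complex was not examined. In Sdhd and Atp5j the Old+YM values lay above the Old range, which ended at 10.95 and 182 CPM.

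The counts for complex I were 0 higher and 0 lower without Old+PM 3, 1 higher and 1 lower without Old+YM 1, and 1 higher and 0 lower without Old+YM 2. For complexes II to V they were 2 higher and 3 lower without Old+PM 3, 1 higher and 6 lower without Old+YM 1, and 1 higher and 4 lower without Old+YM 2. With the mitochondrial share as a covariate, complex I had 2 higher and 0 lower, and complexes II to V had 1 higher and 3 lower. With the GC trend taken out, complex I had 3 higher and 3 lower, and complexes II to V had 3 higher and 6 lower. Citric acid cycle genes had 4 of 22 higher and 0 lower, led by Idh2, mitochondrial isocitrate dehydrogenase, at 388, 356 and 427 CPM against 476, 516 and 643 CPM (log2 0.48), beside Sdha, Mdh2 and Idh3g. None of the 22 was at an unadjusted p under 0.05 without Old+PM 3, 1 was higher without Old+YM 1, without Old+YM 2 or with the mitochondrial share as a covariate, and 2 were with the GC trend taken out.

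Of the transcripts of the mitochondrial genome, ND3, a complex I subunit (positions 9459 to 9806 of chromosome M, plus strand, GRCm38), differed most. It was at 139.1, 172.2 and 131.9 CPM in Old+YM and 24.1, 7.43 and 4.14 CPM in Old+PM, a log2 difference of -3.63 (SE 0.704, edgeR adjusted p = 0.226; limma-voom adjusted p = 0.000759). The Old libraries ran from 3.12 to 16.7 CPM, so that all Old+YM libraries were far above them, Old+PM 2 and 3 among them and Old+PM 1 somewhat above. Of 10 such transcripts tested, CYTB (cytochrome b, -0.68) and ND6 (-1.06) were also lower and the ribosomal RNA mt-Rnr1 was higher (0.43).

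Fatty acid oxidation genes and targets of the nuclear receptor PPARA had 3 of 40 higher and 6 lower. The 3 became 0 without Old+PM 3 and 1 without Old+YM 2 or Old+PM 2, while 4 to 9 were lower whichever library was left out. Ehhadh, a peroxisomal enzyme of beta-oxidation (chr16:21761287-21787807, minus strand, GRCm38), was at 22.2, 32.8 and 15.8 CPM in Old+YM and 11.3, 10.9 and 10.3 CPM in Old+PM (log2 -1.12, SE 0.241, adjusted p = 0.226). All 3 Old+YM libraries were above the Old range of 10.4 to 13.9 CPM, Old+PM 1 and 2 were in it, and Old+PM 3 was just below. Pdk4, a pyruvate dehydrogenase kinase induced by fasting and by glucocorticoids, was at 2.38, 4.62 and 7.87 CPM against 0.373, 0.531 and 0 CPM, where 1 CPM is about 8.2 counts in the smallest library. The acyl-CoA thioesterases Acot3, Acot2 and Acot1 stood at -0.91, -0.90 and -0.43 log2, and the carnitine carrier Slc25a20 at -0.40. The short-chain and very-long-chain dehydrogenases Acads and Acadvl were on the higher side at 0.58 and 0.28, as was Cyp4a12b at 0.60. Ppara itself differed by -0.19 (95% interval -0.48 to 0.11).

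Lipid and sugar metabolism followed. Cholesterol synthesis and SREBP targets had 4 of 32 higher and 2 lower, with the fatty acid elongase Elovl6 at 19.8, 23.2 and 20.04 CPM against 11.4, 14.5 and 11.7 CPM (log2 -0.74) and the regulator Srebf1 at -1.25. Glycolysis genes had 3 of 19 higher and 1 lower, the first being Pgam1, phosphoglycerate mutase, at 3.002, 4.01 and 3.48 CPM against 7.08, 6.19 and 8.80 CPM (log2 1.07). In both leading genes the groups did not overlap. These counts on the higher side were 0 and 1 without Old+PM 3. Gluconeogenesis and glucose transport genes had 3 of 17 higher and 2 lower, which became 1 and 0 without Old+PM 3. The sugar transporter Slc5a10 differed by 0.50 log2, but exons of Fam83g and Grap overlap it on the other strand.

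Along the nephron, proximal tubule markers had 6 of 40 higher and 3 lower. The 6 became 0 without Old+YM 3, 1 without Old+PM 3, 2 without Old+YM 1 and 3 with the mitochondrial share as a covariate, and the 3 became 6 without Old+PM 1 and 0 without Old+PM 2. The phosphate cotransporter Slc34a1, which shares exon sequence with Pfn3 on the other strand, was at 4162, 3274 and 3818 CPM against 4343, 4266 and 5306 CPM (log2 0.31, adjusted p = 0.389), and Kap at 14460, 15440 and 13000 CPM against 19570, 16160 and 21640 CPM (log2 0.42). The creatine-synthesis enzyme Gatm was at -1.19 log2 and the pyrimidine-degrading enzyme Dpys at -0.73. The endocytic receptor Lrp2 differed by -0.42 (95% interval -0.86 to 0.01), with overlapping groups.

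The collecting duct's principal cells had 0 of 11 markers higher and 3 lower. Aqp3, their basolateral water channel (chr4:41092722-41098183, minus strand, GRCm38), was at 26.0, 46.1 and 22.7 CPM in Old+YM and 14.0, 17.4 and 13.7 CPM in Old+PM (log2 -1.07, SE 0.26, edgeR adjusted p = 0.226, DESeq2 adjusted p = 0.0464). Old+YM was above the Old range of 11.8 to 18.03 CPM in each library and Old+PM inside it. Scnn1g, a sodium channel subunit, was at 10.6, 15.2 and 6.03 CPM against 4.29, 2.57 and 4.14 CPM, and the transcription factor Gata3 at -0.56 log2. The apical water channel Aqp2, by contrast, was at 131.3, 250.1 and 206 CPM against 239, 176 and 239 CPM, with groups that overlap. The count of 3 lower markers was 3 or 4 whichever library was left out, and 4 with the GC trend taken out.

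Thick ascending limb markers had 0 of 13 higher and 1 lower (7.69%, beside 6.75% of all genes), with 6 of 13 above 0. Their list sums overlapped, at 2655 to 3619 CPM in Old+YM and 2911 to 3453 CPM in Old+PM. The lower marker was Kcnj1, the ROMK potassium channel, at 72.4, 86.1 and 77.2 CPM against 60.8, 56.7 and 38.7 CPM (log2 -0.59). In the distal convoluted tubule 3 of 16 markers were higher and 0 lower, namely Kcnj16, a potassium channel subunit, at 544, 471 and 538 CPM against 592, 684 and 1039 CPM (log2 0.58), the magnesium-handling gene Cnnm2 (0.52) and the calcium-binding Calb1 (0.42). That count was 1 without Old+PM 3 and 1 without Old+YM 2.

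Selected kidney genes had 4 of 25 higher and 2 lower. Ren1, renin, was at 45.0, 28.1 and 32.3 CPM in Old+YM and 60.1, 59.8 and 53.6 CPM in Old+PM (log2 0.72, SE 0.224, adjusted p = 0.261), all Old+PM values being above the Old range of 22.2 to 48.3 CPM. Kl, Klotho, the co-receptor for FGF23 that declines in ageing kidneys, was at 230.3, 232 and 175 CPM against 154, 129 and 109.9 CPM (log2 -0.70, SE 0.234, adjusted p = 0.285). Old+YM 1 and 2 were above the Old range of 118 to 182 CPM, and Old+PM 3 was below it. Spp1, osteopontin, was at 391, 434 and 314 CPM against 236, 210.3 and 128 CPM (log2 -0.99, adjusted p = 0.258), with exons of Gm42793 overlapping on the same strand. Tgfb1 was at 3.93, 2.80 and 3.27 CPM against 5.69, 8.14 and 4.97 CPM (log2 0.91). The tubule injury marker Havcr1, KIM-1, was at 8.90, 16.7 and 3.48 CPM against 4.85, 5.93 and 0.828 CPM, with overlapping groups and a 95% interval of -2.80 to 0.20 log2.

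Among immune genes, B and plasma cell genes had 0 of 17 higher and 7 lower, with a median of -1.14. Igkc, which encodes the constant part of antibody kappa chains (chr6:70726435-70726966, plus strand, GRCm38), was at 103, 91.5 and 236 CPM in Old+YM and 30.8, 50.9 and 30.6 CPM in Old+PM (log2 -1.94, SE 0.475, adjusted p = 0.258). The groups did not overlap, and Old+YM 3 was the highest library and, with Old+YM 1, above the Old range of 37.7 to 95.6 CPM. Jchain, which joins antibody units, was at 48.5, 67.3 and 116.2 CPM against 18.6, 11.4 and 41.5 CPM. The others were Ighg1, Ighg3, Ighg2b, Iglc2 and Iglc3, each under 7 CPM in every library but for Ighg1 (13.9 CPM) and Ighg2b (55.3 CPM) in Old+YM 3.

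Summed over the B and plasma list, levels were 699 to 1525 CPM in Old+YM, 297 to 737 CPM in Old+PM and 282 to 1245 CPM in untreated Old. The 7 became 2 without Old+YM 3, 3 without Old+PM 3, and 4 without Old+PM 1 or Old+PM 2. T and NK cell genes had 2 of 13 higher and 0 lower, Il7r, the interleukin 7 receptor, at 0.725, 0.365 and 0.102 CPM against 1.59, 2.74 and 2.90 CPM, and Cd8a, both at low counts. The 2 became 1 without Old+YM 1, Old+YM 3, Old+PM 1 or Old+PM 3, beside 2 in the other fits that leave out a library. DESeq2 called Il7r (adjusted p = 0.0446), and edgeR did not (adjusted p = 0.258).

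Macrophage genes had 2 of 22 higher and 1 lower, with 19 of 22 above 0 and a median of 0.46. The shares, 9.09% and 4.55%, were near those of all genes, and 0 members were higher with the mitochondrial share as a covariate. Csf1r, the receptor for the macrophage growth factor CSF1, was at 30.5, 43.4 and 35.3 CPM against 60.9, 62.01 and 57.1 CPM (log2 0.72), with exons of Hmgxb3 overlapping on the other strand. List sums overlapped, at 359 to 454 CPM and 416 to 759 CPM, and untreated Old ran from 280.4 to 1722 CPM. Endothelial genes had 3 of 16 higher and 0 lower, Kdr, the VEGF receptor, at 126.0, 126.5 and 149.4 CPM against 164, 188 and 185 CPM (log2 0.42), with Pecam1 and Egfl7. The 3 became 1 without Old+YM 1, and 1 higher and 1 lower without Old+PM 2 or with the mitochondrial share as a covariate. None of 41 interferon response genes, 28 proliferation genes or 14 fibroblast and pericyte genes was at an unadjusted p under 0.05.

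Enzymes of drug metabolism had 2 of 31 higher and 6 lower. The 6 became 2 when Old+YM 2, Old+YM 3, Old+PM 2 or Old+PM 3 was left out, with 3, 3, 2 and 1 higher, and 2 lower against 3 higher with the GC trend taken out. Fmo2, a flavin monooxygenase, was at 273.8, 273.8 and 316 CPM against 241, 195 and 163 CPM (log2 -0.53), and Ugt3a2, a glycosyltransferase, at 414, 492 and 372 CPM against 307, 192 and 103 CPM (log2 -1.08). Cyp2d9, a male-biased P450, was at 128, 149.6 and 262 CPM against 253, 260.5 and 353 CPM (log2 0.69, overlapping groups, and exons of Gm27622 and Gm46501 on the same strand). Antioxidant genes and targets of NRF2 had 4 of 42 higher and 2 lower, among them Taldo1, transaldolase of the pentose phosphate pathway, at 257, 254 and 257 CPM against 329, 329 and 391 CPM (log2 0.45), and the mitochondrial peroxiredoxin Prdx3 at -0.72.

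Stress lists gave few genes. Endoplasmic reticulum stress genes had 0 of 21 higher and 2 lower, with the chaperone Hsp90b1 at 220, 208 and 169 CPM against 158, 119 and 107 CPM (log2 -0.64), and exons of other genes overlap it on both strands. Glucocorticoid targets had 0 of 16 higher and 2 lower, Pdk4 and the transcription factor Klf15, the latter at 58.7, 48.4 and 57.2 CPM against 36.2, 23.5 and 21.01 CPM. Immediate early genes had 1 of 24 higher and 3 lower with a median of -0.34, and Klf6 stood at 44.7, 53.8 and 43.6 CPM against 36.3, 31.1 and 28.9 CPM. In Klf15 and Klf6 the groups did not overlap. Targets of p53 and senescence genes had 1 of 34 higher (Glb1) and 1 lower (Gadd45a, a growth arrest gene, -1.01).

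Markers of neighbouring tissues were read for what a dissection could carry in. Urothelium genes had 0 of 7 higher and 2 lower (Upk1a and Upk3a) and summed to 10.7 to 42.9 CPM in Old+YM and 3.73 to 17.8 CPM in Old+PM. Their median log2 difference was -1.34, and 0 of 7 were above 0. The 2 became 5 without Old+PM 1 and 0 without Old+YM 2, Old+YM 3 or Old+PM 3. The adipocyte list had 0 of 15 higher and 1 lower, with 4 of 15 above 0 and a median of -0.89. It summed to 1266 to 1392 CPM in Old+YM and 1019 to 1229 CPM in Old+PM, with Old at 829.6 to 1356 CPM. The lower member was Fabp4, a fatty acid carrier, at 85.0, 115.7 and 88.6 CPM against 55.7, 46.7 and 20.4 CPM. Adipoq, the defining adipocyte hormone, was at 0.518, 4.74 and 1.84 CPM against 3.36, 0 and 0.104 CPM. The count of 1 became 6 without Old+PM 1 and 0 without Old+YM 2, Old+PM 2 or Old+PM 3. Of the 11 adrenal markers 5 had no count in the 6 libraries, and their sum was 0.73 to 2.05 CPM against 0.885 to 7.35 CPM. The part these tissues have in the differences above was not tested.

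The GC share of the transcript end ran with the difference between the formulas. Of the genes tested, 13631 (92.9%) had a GC value, and their median log2 difference between the formulas was -0.14 in the lowest of 5 GC bins of near equal size and -0.07, 0.01, 0.10 and 0.18 in the next 4. Against untreated Old, the medians from the lowest to the highest bin ran from 0.03 to -0.08 in Old+YM and from -0.13 to 0.09 in Old+PM. Among the 20 genes above, the GC share of the transcript end ran from 28% to 52.3% in the 10 lower ones (median 36.2%) and from 35.7% to 64% in the 10 higher ones (median 45.5%), so the ranges overlapped. Usp19, lower in Old+PM, had the 52.3%, and Chsy1, higher in Old+PM, the 35.7%. After the GC trend was taken out, the log2 difference of Chsy1 was 0.78, against 0.65. Other genes of the 20 moved toward 0, such as Armc8 (-1.09 against -1.16) and Arhgef10l (-1.11 against -1.16). After each library's trend over GC was taken out, 0 genes passed, the smallest edgeR adjusted p was 0.102, and 1570 genes were at an unadjusted p under 0.05. Whether sequence composition has a part in any single difference was not tested.

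**Figure D5:**
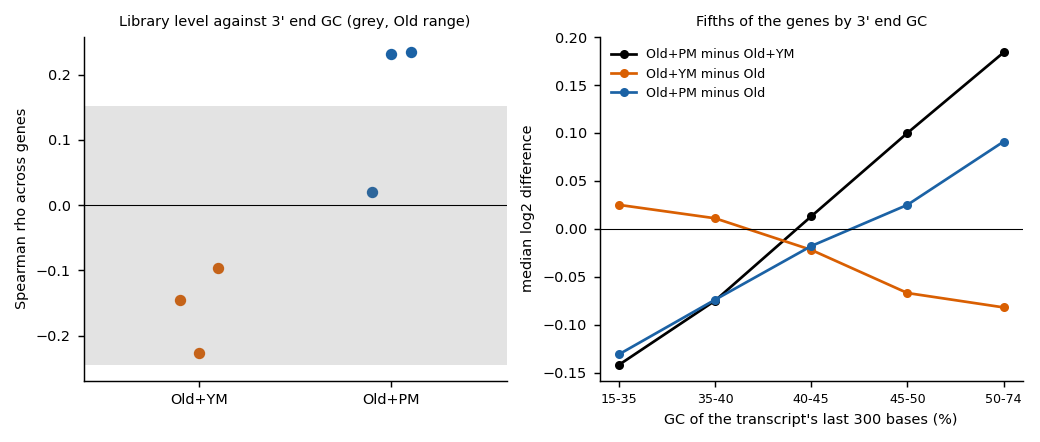
Left: Spearman rho across genes between log2 CPM and the GC share of the transcript's last 300 bases. Each gene's log2 CPM is taken as its deviation from its mean over all 16 libraries. Points are the treated libraries, and grey is the range of the 5 untreated Old libraries. Right: median log2 difference (y) in 5 bins of the genes by that GC share (x, %); the black line, Old+PM minus Old+YM, climbs from -0.14 to 0.18.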

How the data were processed

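Libraries were 3' end sequencing (QuantSeq) of mouse kidney RNA. The authors deposited raw counts per gene symbol for each library; Bowtie2, bedtools and the build mm10 are named per the submitters' processing notes, with no role or order. Nothing was normalized before deposit as far as the values show: they are whole numbers with differing totals, 8223008 to 10914515 over the 16 libraries, and no row lacked a gene name.

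All 16 libraries were fitted together in edgeR 4.0.16 (R 4.3.3) with TMM scaling, filterByExpr (minimum count 10, which kept 14665 genes) and a robust quasi-likelihood F test, group as the only term, two-sided, Benjamini-Hochberg over all genes tested at 0.05. The 5 Young libraries, from mice aged 3 months, were in that fit and so share its filter, scaling and estimate of spread. CPM values are counts scaled to library totals after TMM. Standard errors and 95% intervals come from the same fit. Library measures were compared by exact permutation. The procedure was tested on simulated counts. DESeq2 1.42.0, limma-voom 3.58.1 and other settings were alternatives, and the removal of a GC trend was added after seeing the data. Coordinates come from a GRCm38 annotation and promoters from RefSeq.

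Members and lists were chosen with earlier results of these data known, and lists get no test. Since no gene passed, the text names the 10 genes in each direction with the smallest unadjusted p (mean of at least 5 CPM), 1 member of each list with the smallest p under 0.05, and selected kidney genes under 0.05. Every other gene named with a value was chosen after its values were seen. A few genes that this rule names are not reported here.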

Additional observations from a re-analysis of the deposited data

How the results depend on the processing

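The count of genes passing, 0 in the edgeR fit of 16 libraries, was 0 too with DESeq2 size factors, upper-quartile scaling, mitochondrial genes left out, a stricter filter, no robust step, the mitochondrial share as covariate, the GC trend removed, and each of the 6 treated libraries left out in turn. It was 8 with no filter on low counts, 58 with DESeq2, 2 with limma-voom, 414 with limma-voom and sample weights (105 higher, 309 lower), 13 with the 6 treated libraries alone and 3 with a clock score as covariate. Of 1208 list members tested, 0 passed, against 2 with no filter, 6 with DESeq2, 1 with limma-voom and 52 with sample weights. The cause of these differences was not tested. With a replicate block on the 6 treated libraries 15 genes passed, all lower, and 2 list members. The labels do not say what a shared number marks. Deviations of same-numbered libraries from their group means correlated at -0.055, -0.017 and 0.059, so no pairing was seen. With 3 libraries a group, these values cannot exclude a pairing.

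Genes at an unadjusted p under 0.05 ranged from 906 (without Old+PM 3) to 2536 (without Old+PM 1), against 1878. The difference in mitochondrial share, -4.071 percentage points, ranged from -5.468 to -2.079 when a library was left out, the latter without Old+YM 2. Of the 64 genes that the naming rule picks, none changed sign under the alternatives that gave it a value, 18 to 20 each (6 genes had fewer than 20). The rule picks genes for a small p in these same counts, so a kept sign is largely set by that choice and is no separate check. Other genes given with values were not followed through the alternatives. Of 1078 list medians under alternatives, 56 moved by more than the SD between libraries. With 3 libraries a group, differences under about 0.52 log2 units lie within the median interval.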

Other observations

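Some of the widest gaps between the formulas were in genes at or near 0 in Old+PM and in untreated Old, picked out here after their values were seen, among the 13 that edgeR called on the 6 treated libraries alone. Crtc2, a coactivator of CREB, was at 8.18, 14.2 and 3.99 CPM in Old+YM and at 0.186, 0.0885 and 0 CPM in Old+PM, with Old at 0 to 0.626 CPM. Btf3, a subunit of the nascent polypeptide-associated complex, was at 6.73, 19.5 and 8.28 CPM against 0.746, 0.354 and 1.04 CPM, with Old at 0 to 1.15 CPM. In both genes all Old+YM libraries were above every Old and Old+PM library. In the fit of the 6 libraries both genes passed the count filter only through Old+YM, where they are high. Their calls in that fit are therefore no separate support for the gap.

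The metalloproteinase Adam9 was at 13.3, 21.9 and 11.04 CPM against 3.36, 1.33 and 1.76 CPM, the splicing factor Snrpf at 17.3, 24.6 and 16.6 CPM against 5.499, 3.27 and 2.59 CPM, and the potassium channel Kcnj2 at 4.66, 4.87 and 5.01 CPM against 0.839, 0.354 and 0.414 CPM. The Old+PM values of Adam9, Snrpf and Kcnj2 were within the Old range or just below it. In the fit of all 16 libraries the edgeR adjusted p of these 5 genes was 0.243 (Crtc2) to 0.274 (Btf3).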
